A study of Mus musculus with 10 samples.

Results

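The 47 genes described here encode kinases, cyclins, checkpoint proteins, kinetochore and spindle components and cytokinesis factors of mitosis, together with 2 transcription factors of the mitotic genes. They were taken from a fixed list of mouse symbols and not by a cutoff on their measured values. Earlier results of these data were known when the list was chosen. All 47 were found among the 22731 genes of the count table, and all 47 were among the 16344 genes that passed the filter on low counts. The cells were mouse fibroblasts of the genotype labelled C57B6, and the series title places the work in the pancreas. There were 4 libraries of fibroblasts cultured alone (monoculture), 3 of fibroblasts cocultured with WT ILC2s and 3 of fibroblasts cocultured with IL13KO ILC2s. ILC2s are group 2 innate lymphoid cells, tissue lymphocytes that secrete IL-5 and IL-13, and those labelled IL13KO lack IL-13. The labels give no culture time, age, sex, animal or batch, so the tests measure the spread between these libraries, which may be technical. For the fibroblasts recovered after coculture the design text names a gate that includes CD45, the pan-leukocyte antigen, although the fibroblasts put into culture were sorted as CD45-negative.

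Mitosis is driven by CDK1 bound to cyclin B, with the kinases PLK1, Aurora A and Aurora B acting at centrosomes and chromosomes. The spindle checkpoint holds cells in metaphase until every kinetochore is attached, after which CDC20 and the anaphase-promoting complex mark securin and cyclin B for destruction. A contractile ring at the central spindle then divides the cell. Most genes of this program are transcribed periodically, late in the cell cycle, and are held low in resting cells by the DREAM complex. B-MYB (Mybl2) and FOXM1 activate them, through promoters that often carry CCAAT boxes and the cell cycle homology region (CHR).

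The promoters of the members are shown first because many of them share these letters. The RefSeq promoter table (build GRCm38.p6, 250 bases before to 50 after each annotated start) held 38 of the 47 members, and Cdc25c, Spc24, Kif20a, Aurkb, Dlgap5, Foxm1, Tpx2, Incenp and Ccna2 had no entry. In the stretches below, 120 bases before to 50 after the start, capitals mark the motifs. CCAAT boxes were searched as CCAAT and, for the other strand, as ATTGG. The CHR was searched as TTTGAA and, for the other strand, as TTCAAA. The form TTCGAA, which reads alike on both strands, was included. The letters do not overlap one another in these 7 stretches. The first 5 genes hold both motifs. Mybl2 and Pttg1, the members with the largest rise and the only fall in the WT cocultures, are among the 6 members that hold neither in the window searched. The stretches are chr10:69352863-69353032, minus strand, for Cdk1; chr4:118437294-118437463, minus strand, for Cdc20; chr2:127831810-127831979, minus strand, for Bub1; and chr9:83834569-83834738, plus strand, for Ttk. The other stretches are chr9:61946750-61946919, minus strand, for Kif23; chr2:163054515-163054684, plus strand, for Mybl2; and chr11:43425932-43426101, minus strand, for Pttg1.
Cdk1: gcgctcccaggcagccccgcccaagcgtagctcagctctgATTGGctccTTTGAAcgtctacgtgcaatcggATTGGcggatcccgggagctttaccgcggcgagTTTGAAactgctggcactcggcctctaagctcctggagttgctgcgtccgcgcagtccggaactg
Cdc20: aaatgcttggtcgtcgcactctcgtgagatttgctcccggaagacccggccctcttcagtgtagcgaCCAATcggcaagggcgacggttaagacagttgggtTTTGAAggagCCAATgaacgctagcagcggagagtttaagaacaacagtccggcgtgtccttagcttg
Bub1: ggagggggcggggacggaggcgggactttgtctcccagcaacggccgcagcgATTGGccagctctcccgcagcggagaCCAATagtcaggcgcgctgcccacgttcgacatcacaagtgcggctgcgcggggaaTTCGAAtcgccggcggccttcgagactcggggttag
Ttk: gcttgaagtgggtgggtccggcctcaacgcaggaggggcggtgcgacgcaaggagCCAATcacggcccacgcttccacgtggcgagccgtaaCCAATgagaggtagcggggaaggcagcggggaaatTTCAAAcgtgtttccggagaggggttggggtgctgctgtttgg
Kif23: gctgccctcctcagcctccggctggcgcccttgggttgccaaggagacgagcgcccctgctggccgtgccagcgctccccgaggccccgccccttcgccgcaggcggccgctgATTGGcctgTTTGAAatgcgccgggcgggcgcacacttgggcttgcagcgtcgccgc
Mybl2: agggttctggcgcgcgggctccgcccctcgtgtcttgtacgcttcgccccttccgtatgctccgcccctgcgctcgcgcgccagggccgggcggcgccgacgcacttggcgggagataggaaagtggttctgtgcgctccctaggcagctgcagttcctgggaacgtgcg
Pttg1: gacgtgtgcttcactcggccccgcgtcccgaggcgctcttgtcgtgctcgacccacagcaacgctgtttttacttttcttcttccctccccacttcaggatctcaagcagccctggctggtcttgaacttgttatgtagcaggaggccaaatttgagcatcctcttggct

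In Bub1, the motifs' first bases lay at -68 and -42 (CCAAT) and 15 (CHR), counted so that the first transcribed base is 1 and the base before it is -1. In Ttk they lay at -65 and -28 (CCAAT) and 8 (CHR). Cdk1 had CHR letters at -71 and -15 and CCAAT letters at -80 and -48 in the printed stretch. Of the 38 members, 27 (71.1%) held CCAAT in the whole window, against 41.1% of the 27025 genes of the table, where a gene with several starts counts as holding a motif if any of its promoters does. CHR letters were in 29 members (76.3%) and in 21.7% of all genes. Both motifs were in 24 members (63.2%) and in 8.61% of all genes, and 6 members (Birc5, Mad2l1, Mybl2, Nuf2, Nusap1 and Pttg1) held neither. With WT ILC2s the log2 fold changes of Birc5, Mad2l1, Nuf2 and Nusap1 were 2.54, 1.27, 2.07 and 2.80, between those of Mybl2 (6.32) and Pttg1 (-1.06). A link between these motifs and the size of the change was not tested. In the interval from -30 to 45, chosen after the positions were seen, CHR letters were in 27 members (71.1%) and in 4.79% of all genes. These matches are descriptions of letters and not of bound sites, and absence says only that the letters are not in this window. The RefSeq starts used for Pttg1 and for some other members, such as Kif2c and Cdca8, lie inside the genes as GENCODE draws them. Other starts of these genes were not searched.

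**Figure D1:**
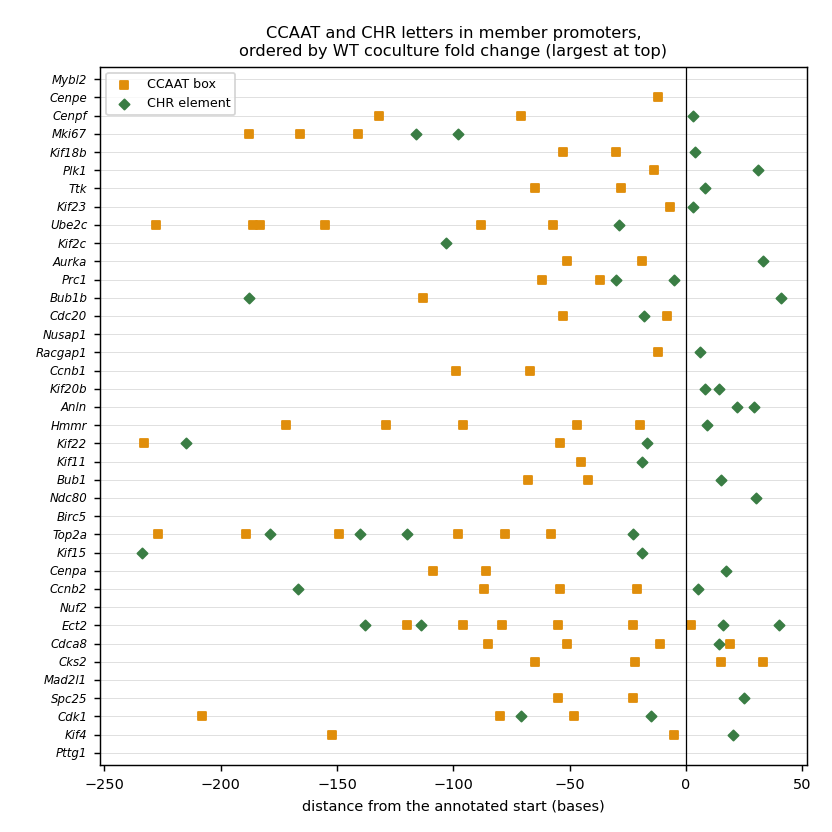
CCAAT (squares) and CHR (diamonds) letters in the promoters of 38 members, by distance from the annotated start in bases. Ect2 and Prc1 have 2 annotated starts each, drawn on 1 row. Most CHR letters lie close to the start. The top and bottom rows, Mybl2 and Pttg1, are empty, as are those of Birc5, Mad2l1, Nuf2 and Nusap1.

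As a group, the members were lowest in monoculture, intermediate with IL13KO ILC2s and highest with WT ILC2s. Their summed level was 598, 594, 550 and 547 CPM (TMM-normalised counts, scaled so that libraries of unequal depth can be compared) in monocultures 1 to 4. It was 2413, 2464 and 2831 CPM in the WT cocultures and 822, 801 and 1137 CPM in the IL13KO cocultures. The 3 groups did not overlap in this sum. The mean was 4.49 times the monoculture mean in the WT cocultures and 1.61 times in the IL13KO cocultures. In bulk RNA, more cells in mitosis and more of each transcript per cell cannot be told apart. Group means followed the order WT coculture, IL13KO coculture, monoculture in 43 members, in 34 of them with no overlap between any of the 3 groups. In Cdk1, Kif15 and Kif4 the IL13KO mean was below the monoculture mean with overlapping libraries, and Pttg1 had the opposite order to the rest.

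**Figure D2:**
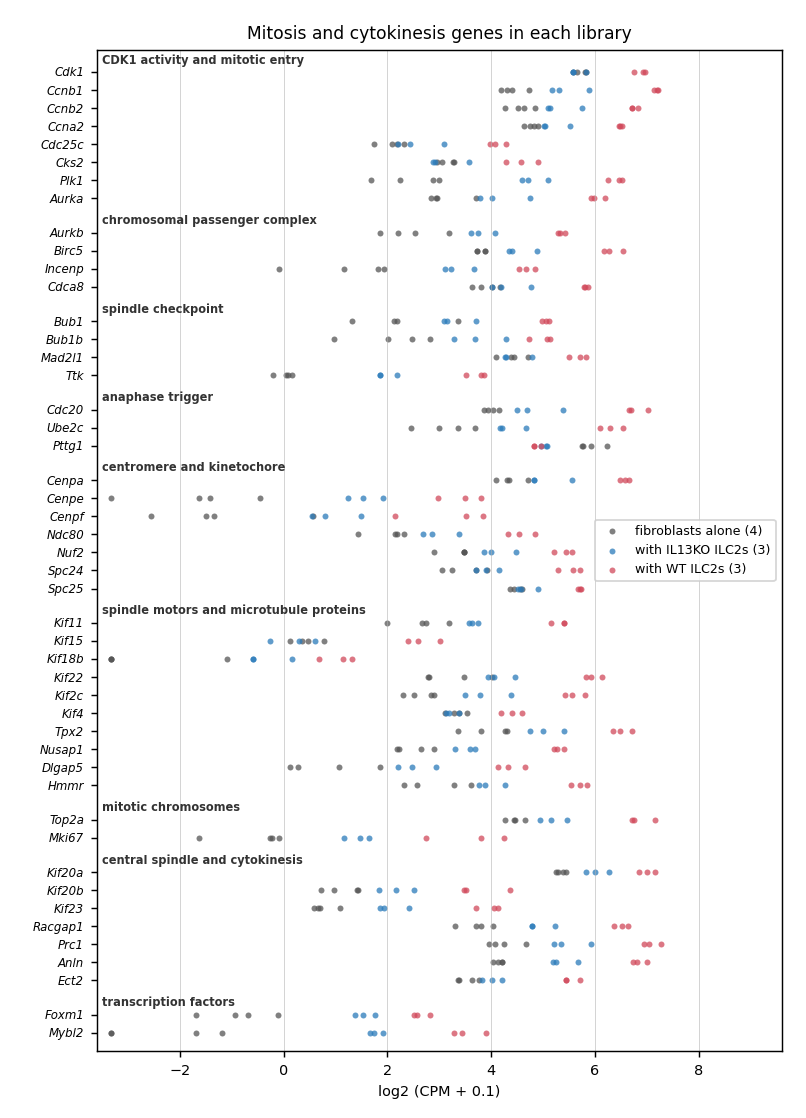
Level of each of the 47 members in each of the 10 libraries, as log2 of CPM plus 0.1, grouped by role. Points are libraries; the WT cocultures lie to the right of the monocultures in every row except Pttg1.

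In WT coculture against monoculture, 46 of the 47 members were called higher and 1 was called lower, by edgeR's quasi-likelihood test (p adjusted by Benjamini-Hochberg over all tested genes, threshold 0.05). Calls were frequent in this comparison, with 32.8% of all tested genes higher and 29.7% lower. The groups did not overlap, with WT cocultures above, in 46 members and in 32.2% of all genes. The members' median log2 fold change was 2.68, against 0.015 for all genes, and 38 members changed by more than 4-fold upward. In IL13KO coculture against monoculture, 37 members were called higher, 1 lower and 9 neither, where 30.1% of all genes were called higher and 27.3% lower. There the median log2 fold change of members was 0.97 (all genes 0.002), and 34 members had IL13KO libraries wholly above the monocultures, as 30.9% of all genes did. Both comparisons use the same 4 monocultures.

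The direct test between the cocultures called 45 members higher with WT ILC2s, none lower and 2 neither (Pttg1 and Kif18b). Among all genes 11.6% were called higher and 11.7% lower, and 24.2% had WT libraries wholly above IL13KO libraries, as 46 members had. No member was lower at an unadjusted p under 0.05, or by DESeq2 or limma-voom. The median log2 difference of the members was 1.59 (all genes -0.004). This difference varied less among members than the WT change from monoculture, with a standard deviation over the 47 members of 0.41 against 1.17 log2 units. Its quartiles were 1.42 and 1.78. The 1.17 includes members with few monoculture counts, such as Mybl2 (0 to 4 counts, 6.32) and Cenpe (0 to 9 counts, 5.17), and the fall of Pttg1 (-1.06). How much these add to the gap was not tested.

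**Figure D3:**
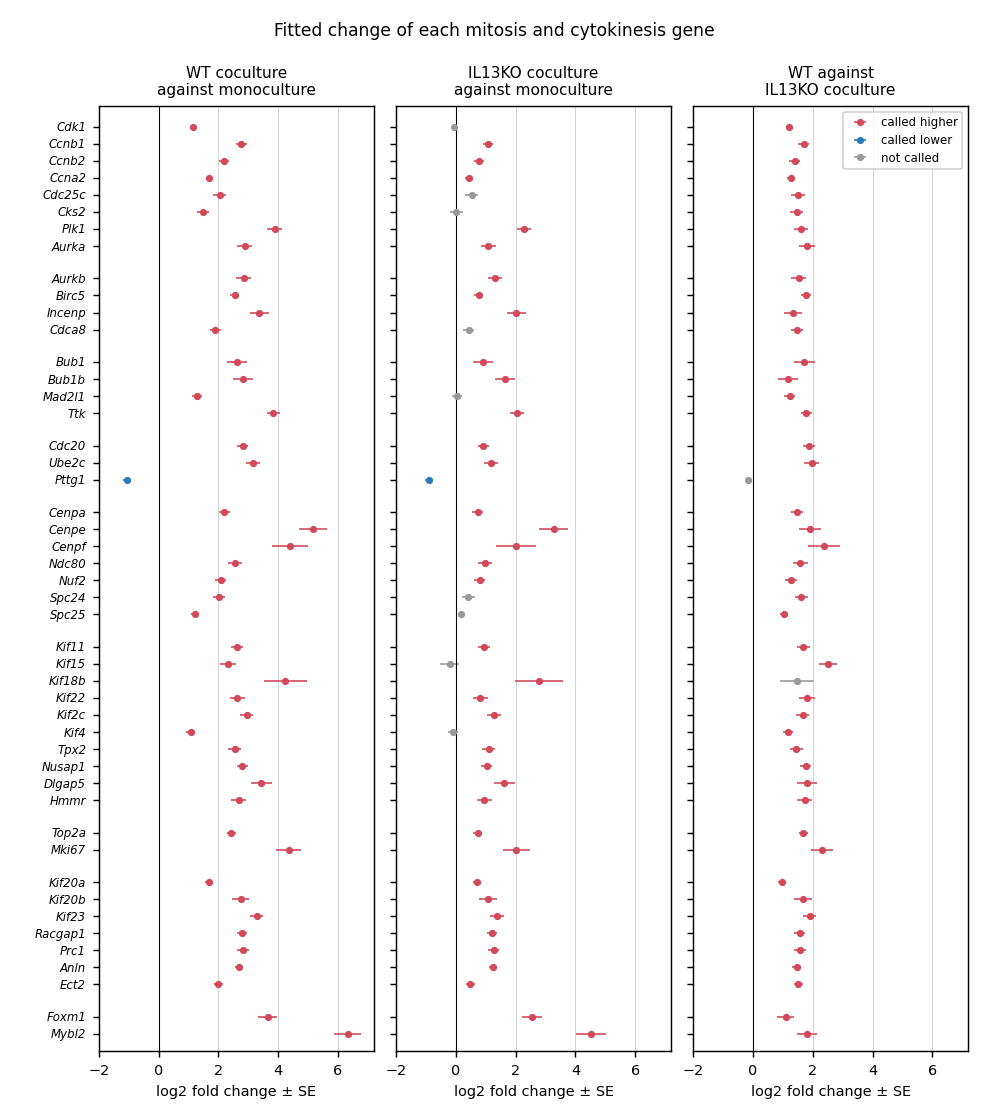
Fitted log2 fold change of each member with its standard error in the 3 comparisons, in the role order of the plot of levels. Red points were called higher, blue lower and grey not called; the right panel is the narrowest, from -0.15 for Pttg1 to 2.52 for Kif15.

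Total counts ran from 10710410 to 14366199 in monocultures, 18801744 to 22087459 in WT cocultures and 17277432 to 17661229 in IL13KO cocultures, so 3 counts equal 0.211 to 0.277, 0.135 to 0.162 and 0.170 to 0.171 CPM. The count table numbers its WT columns 1, 3 and 4, and values below follow the order of the columns. Among IL13KO libraries, replicate 3 was the highest for 44 of the 47 members, with a median deviation from the group mean of 0.34 log2 units, and WT column 4 was the highest of its group for 38 (0.15). All libraries held the 8 fibroblast markers, but not at constant levels: 5 were called higher and 2 lower in each comparison with monoculture. The 5 were not the same genes, as Pdpn was called only with WT and Col1a2 only with IL13KO ILC2s. Pdgfra averaged 372, 633 and 747 CPM in monoculture, WT and IL13KO coculture, and Pdpn 259, 328 and 285 CPM. Dcn and Lum, which encode matrix proteoglycans, were the 2 called lower, from 2532 to 369 and 1650 CPM for Dcn and from 635 to 49.1 and 235 CPM for Lum. Il13 was 1.35, 6.15 and 6.52 CPM in the WT cocultures and had no reads in the other 7 libraries.

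The summed leukocyte markers had the same order of groups as the members, mainly through 1 gene. The summed level of the 10 leukocyte markers was 13.5 to 21.4 CPM in monocultures, 110 to 141 in WT cocultures and 28.4 to 35.9 in IL13KO cocultures. Cd53, a tetraspanin, made up most of it in the WT cocultures, and the other 9 summed to 10.1 to 17.4, 17.5 to 29.98 and 11.7 to 16.9 CPM, with overlap between monoculture and IL13KO coculture. Of the 5 markers that could be tested, Cd53 and Arhgdib were called higher with WT ILC2s and Itgb2, an integrin subunit, lower (2.34 to 1.15 CPM, edgeR adjusted p = 0.0101). Ptprc, which encodes CD45 and defines leukocytes, had no reads in monocultures and 0.269, 0.154 and 0.485 CPM in the WT cocultures, and Laptm5 and Rac2 likewise had no reads in monocultures. Of the 11 ILC2 markers in the table, Il1rl1 rose from a mean of 6.89 to 1299 CPM with WT ILC2s. Gata3, Il5, Il13 and Il2ra were also called higher there, at means of 5.01, 12.4, 4.67 and 1.75 CPM against 1.36, 0, 0 and 0.0176 CPM in monoculture. With IL13KO ILC2s Il1rl1, Gata3, Il5 and Il2ra were called higher, at 16.1, 2.69, 2.01 and 1.65 CPM. Rora, which the monocultures held at 63.7 CPM, was lower with WT ILC2s, at 41.7 CPM. IL13KO replicate 3, with the highest levels of most members in its group, had no Ptprc reads and the lowest Il5 of its group. Replicates 1 and 2 had 0 and 1 Ptprc reads, too few to rank the replicates, and Cd53 in replicate 3 (17.5 CPM) lay between theirs. WT column 4, the highest of its group for 38 members, also had its group's highest Ptprc, Cd53 and Il5 (0.485, 112 and 20.0 CPM). Its summed leukocyte markers were likewise the highest (141 CPM), and its Il1rl1 was the lowest (1184 CPM). The part of leukocyte RNA in the members' levels was not tested. In summed level, 6 mural markers were 60.8 to 89.5, 13.4 to 19.9 and 76.6 to 96.5 CPM, and 5 macrophage markers 58.4 to 65.6, 14.9 to 17.7 and 35.3 to 37.1 CPM, in monoculture, WT and IL13KO coculture. The fall of the macrophage sum was that of Lyz2, a lysozyme (means of 53.4, 2.85 and 23.8 CPM). The other 4 summed to 7.66 to 11.1, 12.1 to 15.4 and 12.3 to 13.1 CPM, and Csf1r was called higher with WT ILC2s. Endothelial and epithelial markers summed to at most 3.69 and 3.33 CPM in any library, and no T or B cell marker was in the table.

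**Figure D4:**
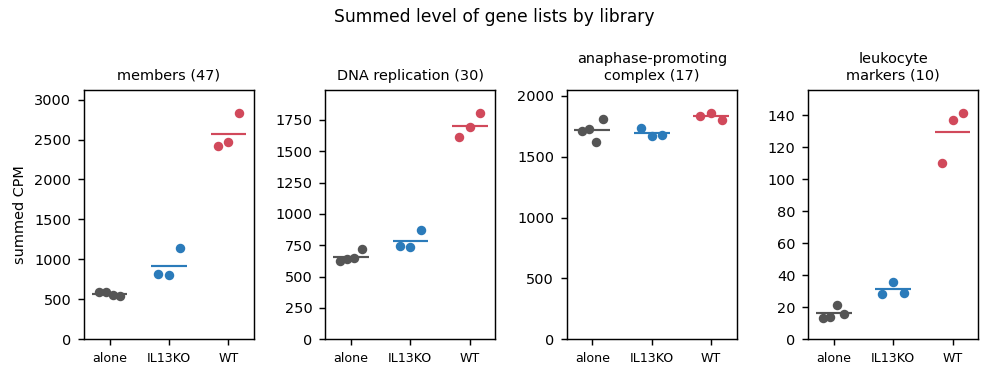
Summed CPM per library of the 47 members, 30 DNA replication genes, 17 genes listed with the anaphase-promoting complex and 10 leukocyte markers, with the group mean as a line. The members separate the 3 groups, whereas the list of the anaphase-promoting complex lies between 1620 and 1859 CPM in every library.

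Among the genes of CDK1 activity and mitotic entry, all 8 rose with WT ILC2s and 5 rose with IL13KO ILC2s. Cdk1, the kinase itself (ENSMUSG00000019942, chromosome 10, 69335146 to 69352938, minus strand), was at 56.6, 56.0, 47.6 and 50.6 CPM in monocultures 1 to 4. It was at 107, 125 and 122 CPM in the WT cocultures and 47.9, 47.9 and 56.6 CPM in the IL13KO cocultures. The WT libraries stood apart, while IL13KO replicates 1 and 2 lay at the lower end of the monocultures and replicate 3 level with the highest monoculture. The log2 fold change of Cdk1 was 1.16 ± 0.10 (SE) with WT ILC2s (edgeR adjusted p = 1.15e-06) and -0.05 ± 0.11 with IL13KO ILC2s (adjusted p = 0.690). With each library's trend in GC content and transcript length removed, the IL13KO value became -0.33 and was called lower (adjusted p = 0.0323).

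Ccnb1, cyclin B1, the partner that activates CDK1, stood at 21.1, 26.4, 18.3 and 19.6 CPM in monocultures. With WT ILC2s it stood at 147, 141 and 149 CPM, and with IL13KO ILC2s at 39.4, 35.8 and 59.0 CPM, the 3 groups being wholly separate. Its log2 fold changes were 2.77 ± 0.17 and 1.07 ± 0.17 (edgeR adjusted p = 5.28e-08 and 1.66e-04), and 23.4% of its 50-base words also occur in the pseudogene Ccnb1-ps. The kinase and its cyclin changed unequally: the ratio of Cdk1 to Ccnb1 in CPM per kilobase of transcript was 1.42 ± 0.14 (SD, n = 4) in monocultures, 0.463 ± 0.046 (n = 3) in WT and 0.666 ± 0.11 (n = 3) in IL13KO cocultures. Ccnb2 and Ccna2, cyclins B2 and A2, rose by 2.18 and 1.70 with WT ILC2s and by 0.78 and 0.43 with IL13KO ILC2s. The Ccna2 call with IL13KO ILC2s was lost without IL13KO replicate 3 (adjusted p = 0.0899).

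Plk1, the polo-like kinase of mitotic entry and spindle assembly, showed the largest rise of this role. Its level was 4.65, 7.85, 3.13 and 7.24 CPM in monocultures, 91.4, 76.1 and 88.3 CPM in WT cocultures and 24.2, 26.0 and 34.2 CPM in IL13KO cocultures. The groups were separate, and the log2 fold changes were 3.88 ± 0.24 and 2.28 ± 0.24 (edgeR adjusted p = 5.38e-08 and 7.16e-06). Aurka, the Aurora A kinase of centrosomes, rose by 2.88 and 1.09.

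Cdc25c and Cks2 complete the group, and neither was called with IL13KO ILC2s. Cdc25c, a phosphatase that activates CDK1, was at 4.48, 4.89, 3.23 and 4.15 CPM in monocultures, 16.7, 15.6 and 19.5 CPM in WT cocultures and 4.48, 5.29 and 8.45 CPM in IL13KO cocultures. IL13KO replicate 1 lay among the monocultures and the other IL13KO libraries above them, and its log2 fold changes were 2.04 ± 0.22 with WT and 0.53 ± 0.23 with IL13KO ILC2s (edgeR adjusted p = 6.36e-06 and 0.0676). Cks2, a small CDK-binding subunit, was at 8.19, 9.63, 7.65 and 9.49 CPM in monocultures, 19.4, 23.8 and 29.8 CPM in WT cocultures and 7.49, 7.28 and 11.8 CPM in IL13KO cocultures. Only the WT libraries stood apart, with a log2 fold change of 1.47 ± 0.20 against 0.02 ± 0.21 with IL13KO ILC2s (edgeR adjusted p = 4.14e-05 and 0.958). Removing the GC and length trend gave log2 fold changes of 0.84 for Cdc25c and 0.53 for Cks2 with IL13KO ILC2s, both then called higher (adjusted p = 0.00630 and 0.0300). Cks2 shares 29.7% of its 50-base words with Gm15452, and 12.7% of the exon bases of Cdc25c overlap Gm3550 on the other strand.

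The chromosomal passenger complex places Aurora B at centromeres and later at the central spindle, where it corrects faulty attachments and guides cytokinesis. All 4 of its genes rose with WT ILC2s and 3 rose with IL13KO ILC2s. Aurkb, its kinase, was at 3.55, 4.52, 9.04 and 5.70 CPM in monocultures, 39.9, 39.1 and 43.0 CPM in WT cocultures and 13.4, 12.1 and 16.7 CPM in IL13KO cocultures. Birc5, survivin, was at 14.6, 14.6, 13.1 and 13.2, at 71.8, 77.5 and 93.5 and at 21.2, 20.2 and 29.5 CPM in the same groups. Neither gene had overlapping groups. Log2 fold changes were 2.84 ± 0.24 and 1.31 ± 0.24 for Aurkb and 2.54 ± 0.15 and 0.77 ± 0.15 for Birc5, with WT and IL13KO ILC2s (edgeR adjusted p = 7.39e-07, 5.66e-04, 3.67e-08 and 8.02e-04). Incenp, the scaffold, rose by 3.37 and 2.03, and its call between the cocultures was lost without IL13KO replicate 2 (edgeR adjusted p = 0.0504). Cdca8, borealin, was at 16.1, 13.8, 12.4 and 18 CPM in monocultures, 56.1, 54.9 and 58.1 in WT and 18, 16.1 and 27.0 in IL13KO cocultures. It rose by 1.90 with WT ILC2s, and with IL13KO ILC2s its value was 0.43 ± 0.18 (edgeR adjusted p = 0.0554). Only IL13KO replicate 3 was clearly above the monocultures of Cdca8.

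The 4 spindle checkpoint genes all rose with WT ILC2s, and 3 of them were called higher with IL13KO ILC2s. Ttk, the kinase MPS1 that starts the checkpoint signal, had 0.929, 0.963, 1.01 and 0.773 CPM in monocultures, 13.9, 11.4 and 14.5 CPM in WT and 3.52, 3.52 and 4.42 CPM in IL13KO cocultures. Its monocultures held 11 to 13 counts each, and the 3 groups were separate, with log2 fold changes of 3.84 ± 0.21 and 2.05 ± 0.22 (edgeR adjusted p = 2.16e-08 and 9.45e-06). Bub1, a kinase of the unattached kinetochore, had 4.48, 10.2, 2.40 and 4.29 CPM in monocultures, 31.4, 34.5 and 33.0 CPM in WT and 8.39, 8.75 and 12.9 CPM in IL13KO cocultures. Monoculture 2 lay within the IL13KO range of Bub1, the change with IL13KO ILC2s was 0.90 ± 0.34 (edgeR adjusted p = 0.0387), and that call was lost without IL13KO replicate 3 (adjusted p = 0.164), and also without IL13KO replicate 2, without monoculture 1, 3 or 4, and without any 1 of the WT libraries (adjusted p from 0.0525 to 0.0909). Without monoculture 2 it was 1.41. With WT ILC2s the change of Bub1 was 2.61 ± 0.33. Bub1b, BUBR1, which inhibits CDC20, rose by 2.82 and 1.64. Its call between the cocultures was lost without WT column 1 or 4 or IL13KO replicate 1 or 2 (edgeR adjusted p = 0.0658, 0.0693, 0.0858 and 0.106), and with a block by column number (0.0857). Mad2l1, MAD2, the other CDC20 inhibitor of the checkpoint, had 25.9, 21.6, 17.1 and 20.8 CPM in monocultures, 45.1, 52.6 and 56.9 CPM in WT and 19.3, 19.1 and 27.3 CPM in IL13KO cocultures. Its WT libraries stood above all others, and its log2 fold changes were 1.27 ± 0.17 and 0.04 ± 0.17 (edgeR adjusted p = 2.55e-05 and 0.870).

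The anaphase trigger held the member that went the other way. Cdc20, the activator of the anaphase-promoting complex in mitosis, was at 15.3, 14.4, 17.6 and 16.2 CPM in monocultures, 104, 101 and 130 CPM in WT and 25.6, 22.5 and 41.8 CPM in IL13KO cocultures. Ube2c, the ubiquitin-conjugating enzyme of that complex, was at 5.41, 7.85, 12.7 and 10.2, at 78.0, 68.7 and 93.5 and at 18.4, 17.9 and 25.5 CPM. In both genes the 3 groups were separate, and log2 fold changes were 2.81 ± 0.19 and 0.92 ± 0.19 for Cdc20 and 3.15 ± 0.23 and 1.19 ± 0.23 for Ube2c (edgeR adjusted p = 1.16e-07, 0.00121, 2.34e-07 and 8.19e-04). Without IL13KO replicate 3 the IL13KO change of Cdc20 was 0.61. Of the exon bases of Ube2c, 22.8% overlap Tnnc2 on the other strand, and the strand setting of the counting is not given in the sources used here.

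Pttg1 encodes securin, the inhibitor of separase that is degraded at anaphase (ENSMUSG00000020415, chromosome 11, 43420250 to 43426251, minus strand). It was at 75.3, 53.5, 60.8 and 54.3 CPM in monocultures, 28.3, 28.4 and 30.9 CPM in WT cocultures and 33.5, 33.0 and 31.0 CPM in IL13KO cocultures. Every coculture library lay below every monoculture, and the WT libraries lay just below the IL13KO libraries. The log2 fold change was -1.06 ± 0.13 with WT and -0.91 ± 0.13 with IL13KO ILC2s (edgeR adjusted p = 1.36e-05 and 7.01e-05). Between the cocultures it was -0.15 ± 0.13 (adjusted p = 0.451). Pttg1 stayed called lower against monoculture, with either ILC2, in every alternative fit. Per kilobase of transcript it was the most abundant of the 47 members in monoculture, at 36.4 CPM per kilobase, and ranked 21 of 47 in the WT cocultures, at 17.5. The most abundant member by that measure in both cocultures was Ccnb2, at 70.3 with WT and 26.7 with IL13KO ILC2s, against 15.5 in monoculture.

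All 7 centromere and kinetochore members rose with WT ILC2s and 5 rose with IL13KO ILC2s. Cenpe, a kinetochore motor that carries chromosomes to the spindle equator, was at 0, 0.222, 0.277 and 0.633 CPM in monocultures, 7.81, 11.1 and 13.8 CPM in WT and 2.78, 2.27 and 3.69 CPM in IL13KO cocultures. Its monoculture values were at or near the level of 3 counts, and its log2 fold changes of 5.17 ± 0.46 and 3.27 ± 0.49 were the second largest of the members in these comparisons (edgeR adjusted p = 1.01e-06 and 1.22e-04). Cenpf, a large kinetochore and spindle protein, was at 0.253, 0.296, 1.38 and 0.0703 CPM in monocultures, 4.35, 11.3 and 14.3 CPM in WT and 1.36, 1.65 and 2.72 CPM in IL13KO cocultures. Monoculture 3 lay inside the IL13KO range, and WT column 1 was the lowest of its group. Cenpf changed by 4.39 ± 0.61 with WT and 2.02 ± 0.67 with IL13KO ILC2s, the latter called (edgeR adjusted p = 0.0208) but not without IL13KO replicate 3 (adjusted p = 0.0857), monoculture 2 (0.0539) or monoculture 4 (0.0559). Without monoculture 3 the IL13KO value of Cenpf was 3.19.

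The 4 NDC80 complex genes, which encode the coupling of kinetochores to microtubules, all rose with WT ILC2s, and 2 of them, Ndc80 and Nuf2, rose with IL13KO ILC2s. Ndc80 was at 4.90, 2.59, 4.33 and 4.43 CPM in monocultures, 19.8, 23.2 and 28.5 CPM in WT and 7.2, 6.31 and 10.3 CPM in IL13KO cocultures, with no overlap. Its changes were 2.55 ± 0.24 and 0.97 ± 0.24 (edgeR adjusted p = 1.44e-06 and 0.00418), and Nuf2 rose by 2.07 and 0.80. Spc24 was at 12.9, 9.33, 15.1 and 8.16 CPM in monocultures, 39.0, 47.8 and 52.5 CPM in WT and 12.9, 14.8 and 17.6 CPM in IL13KO cocultures, and Spc25 at 20.5, 24.1, 21.6 and 23.5, at 50.7, 52.8 and 52.5 and at 22.9, 23.6 and 29.9 CPM. In both genes IL13KO and monoculture libraries overlapped. Spc24 changed by 2.03 with WT ILC2s, and its value with IL13KO ILC2s was 0.42 ± 0.21 (edgeR adjusted p = 0.102). Spc25 changed by 1.21, and its value with IL13KO ILC2s was 0.18 ± 0.12 (edgeR adjusted p = 0.217), or 0.64 and called with the GC and length trend removed (adjusted p = 0.000617). Cenpa, the histone H3 variant that marks centromeres, rose by 2.20 and 0.73. The latter was 0.45 without IL13KO replicate 3, and was not called with the GC and length trend removed (edgeR adjusted p = 0.0597).

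The 10 spindle motors and microtubule proteins all rose with WT ILC2s and 8 rose with IL13KO ILC2s. Kif11, the Eg5 motor that pushes the spindle poles apart, was at 3.89, 6.22, 6.64 and 9.07 CPM in monocultures, 42, 35.5 and 42.1 CPM in WT and 12.3, 11.8 and 13.3 CPM in IL13KO cocultures, all separate. Its changes were 2.62 ± 0.21 and 0.94 ± 0.21 (edgeR adjusted p = 4.67e-07 and 0.00223). Kif15, a motor that can share the work of Eg5, was at 1.61, 1.19, 1.29 and 0.984 CPM in monocultures, 5.16, 5.89 and 7.98 CPM in WT and 0.737, 1.14 and 1.42 CPM in IL13KO cocultures. Here the IL13KO and monoculture libraries overlapped. The values were 2.32 ± 0.28 with WT and -0.20 ± 0.32 with IL13KO ILC2s (edgeR adjusted p = 1.37e-05 and 0.620), and the difference between the cocultures, 2.52 ± 0.30 (adjusted p = 8.48e-05), was the largest of any member.

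Kif4, a chromosome-arm motor with 15.1% of its exon bases overlapped by Pdzd11 on the other strand, showed the smallest rise with WT ILC2s. It was at 9.63, 11.5, 8.48 and 10.3 CPM in monocultures, 18, 21 and 24 CPM in WT and 8.62, 8.98 and 10.3 CPM in IL13KO cocultures, where only the WT libraries stood apart. Its log2 fold change was 1.07 ± 0.16 with WT ILC2s (edgeR adjusted p = 6.92e-05) and -0.10 ± 0.16 with IL13KO ILC2s (adjusted p = 0.605), and the latter was -0.49 and called lower after removal of the trend in GC and length (adjusted p = 0.0298). Kif18b, a motor that shortens astral microtubules, had reads in 1 of 4 monocultures, at 0, 0.370, 0 and 0 CPM, and 2.38, 2.10 and 1.51 CPM in WT and 0.567, 0.568 and 1.02 CPM in IL13KO cocultures. The groups did not overlap, but the difference between the cocultures, 1.47 ± 0.58, did not pass (edgeR adjusted p = 0.0846), and its changes from monoculture were 4.24 ± 0.73 and 2.78 ± 0.81 (adjusted p = 2.46e-04 and 0.0107). Without monoculture 2, the only one with reads, the changes of Kif18b were set by 3 monocultures at 0, and its difference between the cocultures was called (adjusted p = 0.0244). The IL13KO call was lost with the GC and length trend removed (adjusted p = 0.10), as was that of Kif22 (adjusted p = 0.0840). The other 6 genes, Kif22, Kif2c, Tpx2, Nusap1, Dlgap5 and Hmmr, rose by 2.54 (Tpx2, the activator of Aurora A on the spindle) to 3.44 (Dlgap5, a spindle assembly factor) with WT ILC2s. With IL13KO ILC2s they rose by 0.82 (Kif22, a chromosome-bound motor) to 1.62.

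Top2a and Mki67 act on mitotic chromosomes. Top2a, the topoisomerase that untangles sister chromatids, was at 21.9, 25.1, 21.7 and 19.3 CPM in monocultures, 107, 104 and 143 CPM in WT and 30.6, 35.6 and 44.1 CPM in IL13KO cocultures. Mki67, the Ki-67 protein that coats mitotic chromosomes and serves as a marker of cycling cells, was at 0.760, 0.222, 0.738 and 0.844, at 6.60, 13.9 and 18.9 and at 2.16, 3.01 and 2.67 CPM. Both genes separated the 3 groups, Mki67 from monocultures of 3 to 12 counts each, and WT column 1 was the lowest WT library of Mki67. Top2a changed by 2.43 ± 0.15 and 0.74 ± 0.15, and Mki67 by 4.35 ± 0.41 and 2.02 ± 0.45 (edgeR adjusted p = 6.59e-08, 0.00117, 1.71e-06 and 0.00181). Although Mki67 had the larger change, its level per kilobase was lower than that of Top2a in every group, 1.31 against 22.7 CPM per kilobase in the WT cocultures.

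Of the 7 genes of the central spindle and cytokinesis, all rose with either ILC2. Prc1, which bundles the microtubules of the central spindle, was at 19.0, 25.3, 15.5 and 16.7 CPM in monocultures, 124, 131 and 155 CPM in WT and 36.9, 40.5 and 61.0 CPM in IL13KO cocultures. Anln, anillin, the scaffold of the contractile ring, was at 18.5, 16.4, 17.5 and 18.5, at 106, 112 and 128 and at 36.6, 37.9 and 51.0 CPM. Its monocultures spanned only 16.4 to 18.5 CPM, and its WT change of 2.7 ± 0.13 had the smallest adjusted p of all members (edgeR, 8.91e-09). With IL13KO ILC2s Anln changed by 1.24 ± 0.13 and Prc1 by 1.27 ± 0.19 (adjusted p = 7.70e-06 and 1.31e-04), and Prc1 changed by 2.83 ± 0.20 with WT ILC2s. Ect2, the exchange factor that activates RhoA at the division site, was at 12.3, 10.3, 10.2 and 13.5 CPM in monocultures, 43.6, 43.6 and 52.7 CPM in WT and 16.2, 14.2 and 18.4 CPM in IL13KO cocultures. The IL13KO libraries of Ect2 lay just above the monocultures, with a change of 0.49 ± 0.15 (edgeR adjusted p = 0.0145) that was lost without IL13KO replicate 3 or with libraries thinned to equal depth (adjusted p = 0.0734 and 0.0759), against 2.0 ± 0.15 with WT ILC2s.

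Kif20a, MKLP2, the motor that moves Aurora B to the central spindle, was at 41.9, 43.3, 39.2 and 37.7 CPM in monocultures, 116, 129 and 143 CPM in WT and 63.6, 56.8 and 77.6 CPM in IL13KO cocultures. Its difference between the cocultures, 0.97 ± 0.13, was the smallest of the 45 called (edgeR adjusted p = 1.67e-04). Of its exon bases, 29.3% overlap Cdc23 on the other strand, the largest such share among members. The share was above 5% in 7 members, among them Ccna2 (12.5%), Prc1 (11.1%) and Plk1 (7.09%). Kif23 and Racgap1, the motor and the GTPase-activating protein of centralspindlin, rose by 3.28 and 2.78 in the WT cocultures and by 1.38 and 1.22 in the IL13KO cocultures. Kif20b rose by 2.74 and 1.07.

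Foxm1 and Mybl2, the activators of the program, were nearly silent in monoculture. Mybl2, which encodes B-MYB (ENSMUSG00000017861, chromosome 2, 163054687 to 163084688, plus strand), had 0.338, 0, 0 and 0.211 CPM in monocultures, 14.8, 9.58 and 10.8 CPM in WT and 3.23, 3.07 and 3.69 CPM in IL13KO cocultures. Its log2 fold changes of 6.32 ± 0.46 and 4.51 ± 0.50 were the largest of the members in both comparisons (edgeR adjusted p = 2.12e-07 and 1.27e-05). With 2 monocultures at 0 and the others at 3 and 4 counts their size is uncertain, and 19.3% of its 50-base words also occur in Gm3320. Foxm1 had 0.422, 0.518, 0.830 and 0.211 CPM in monocultures, 5.61, 6.97 and 5.82 CPM in WT and 3.29, 2.79 and 2.50 CPM in IL13KO cocultures. It changed by 3.65 ± 0.32 and 2.55 ± 0.34 (edgeR adjusted p = 9.99e-07 and 4.37e-05). Foxm1 was 1 of 3 members whose IL13KO replicate 3 was not the highest of its group. Its difference between the cocultures, 1.1 ± 0.28 (adjusted p = 0.0129), was lost without IL13KO replicate 2 or 3 or WT column 3 (adjusted p = 0.0592, 0.0599 and 0.0611), and at equal depth (0.0865).

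Genes of the same machinery that are not members were counted from 9 lists, which share the fits and the background rates above. DNA replication genes came closest to the members, with 27 of 30 higher and none lower with WT ILC2s. With IL13KO ILC2s 12 were higher and 4 lower, and 27 were higher and none lower in WT against IL13KO coculture. In both comparisons none was lower at an unadjusted p under 0.05, or by DESeq2 or limma-voom. Their median log2 fold changes were 1.79, 0.51 and 1.28 in these comparisons, each below the members' 2.68, 0.97 and 1.59, a gap that was not tested. Mcm6, of the replicative helicase, and Rrm2, of ribonucleotide reductase, changed by 2.24 and 1.95 with WT and by 0.87 and 0.71 with IL13KO ILC2s (edgeR adjusted p = 2.32e-08, 5.28e-08, 7.48e-05 and 2.60e-04).

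Other structural genes of mitosis were mixed. With WT ILC2s, 16 of 22 condensin and cohesin genes, 24 of 31 other kinetochore genes and 22 of 28 other spindle and centrosome genes were higher, and 2, 3 and 2 were lower. With IL13KO ILC2s 7, 8 and 16 were higher and 2, 4 and 3 lower. Between the cocultures 13, 22 and 20 were higher with WT ILC2s and none lower by edgeR, DESeq2 or limma-voom. At an unadjusted p under 0.05 edgeR had 0, 0 and 1 lower. Ncaph and Ncapg2, both of condensin, rose by 2.65 and 2.71 with WT ILC2s. By contrast, Stag2, a subunit of cohesin, and Wapl, which acts on cohesin, fell by 0.63 and 0.47. Hjurp, the chaperone of CENP-A, and Spdl1, an adaptor of kinetochore dynein, rose by 2.61 and 3.92. After the GC and length trend was taken out, the falls of Stag2, Wapl and Cenpp were no longer called, and that of Cenpp was also not called without monoculture 1 (-0.50) or WT column 1 or 3. Cenpp and Zwint fell by 0.76 and 0.60, and Zwint, a kinetochore protein, was abundant in monoculture (274 CPM) and at 181 and 176 CPM in WT and IL13KO coculture. Among spindle genes Tacc3 and Kifc1, a minus-end motor, rose by 2.38 and 3.92, and Kif2a and Mapre1, the microtubule-end protein EB1, fell by 1.0 and 0.49.

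The genes listed with the anaphase-promoting complex did not, as a group, follow its mitotic partners Cdc20 and Ube2c. The list holds subunits and also Fzr1, Fbxo5 and Ube2s, which are not subunits. Of these 17 genes, 8 were higher and 5 lower with WT ILC2s, 6 and 7 with IL13KO ILC2s, and 1 was higher and none lower in WT against IL13KO coculture. None was lower by DESeq2 or limma-voom, and 1 was lower in edgeR at an unadjusted p under 0.05. Fzr1, CDH1, the activator of the complex after mitosis and in G1, was at 8.80, 66.5 and 54.7 CPM on average in monoculture, WT and IL13KO coculture. It rose by 2.93 and 2.65 against monoculture (edgeR adjusted p = 8.88e-07 and 4.29e-06) and its value between the cocultures was 0.28 ± 0.25 (adjusted p = 0.459). The scaffold Anapc1 rose by 1.09 and 1.03, and the small subunits Anapc13 and Cdc26 fell by 1.03 and 0.71 with WT ILC2s. Contractile ring and abscission genes were also divided, with 10 of 22 higher and 9 lower with WT ILC2s, 11 and 9 with IL13KO ILC2s, and 3 higher and 1 lower between the cocultures. Iqgap3 and the kinase Cit rose by 6.23 and 3.40 with WT ILC2s, and Chmp2a and Chmp2b, ESCRT-III subunits that act in abscission and in other membrane cuts, fell by 0.88 and 0.81.

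**Figure D5:**
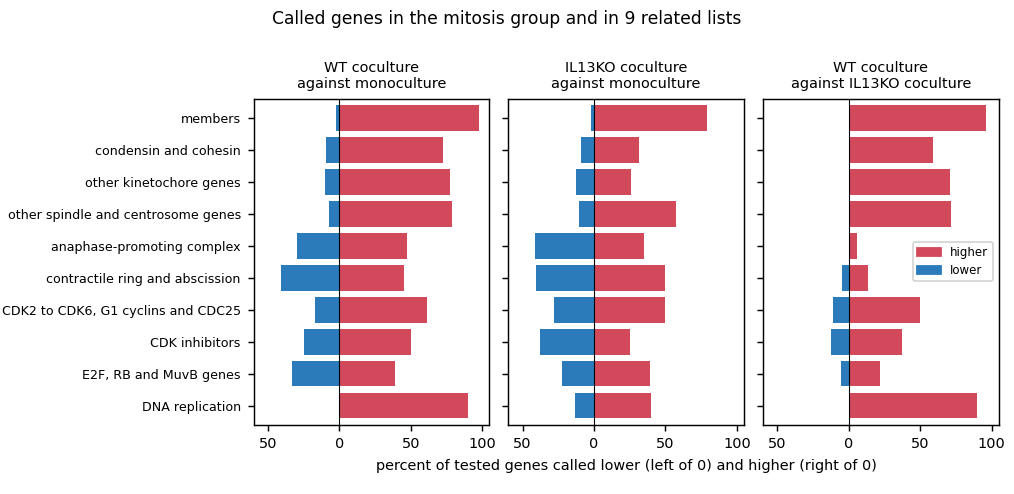
Percent of tested genes called higher (right of 0) and lower (left of 0) in the 47 members and in 9 related lists, for the 3 comparisons. The members and DNA replication genes have the longest bars to the right between the cocultures, where 1 of 17 genes listed with the anaphase-promoting complex was called.

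Other cell cycle regulators were measured as well. A list of 18 genes held CDK2 to CDK6, G1 cyclins and CDC25, and also Cdk7, Ccnh, Ccnf, Ccng2, Cks1b, Wee1, Pkmyt1 and Skp2. Of these 18, 11 were higher and 3 lower with WT ILC2s, 9 and 5 with IL13KO ILC2s, and 9 and 2 between the cocultures. Cdk6, a G1 kinase, was at 20.8, 116 and 42.6 CPM in monoculture, WT and IL13KO coculture. Its log2 fold changes were 2.48 and 1.03 (edgeR adjusted p = 2.63e-09 and 4.52e-06). Among D cyclins, partners of that kinase, Ccnd3 rose with either ILC2 (2.25 and 2.16) with 0.09 ± 0.26 between the cocultures (adjusted p = 0.835), and Ccnd2 fell by 0.83 and 0.41. Ccnd1 was scarce, at 2.39 CPM in monoculture and 4.46 with WT ILC2s (0.90, adjusted p = 0.0279), and with IL13KO ILC2s its value was 0.24 (adjusted p = 0.553). The E cyclins of S-phase entry, Ccne1 and Ccne2, rose by 1.12 and 2.28 with WT and by 0.44 and 0.54 with IL13KO ILC2s, where Ccne2 was not called without IL13KO replicate 3 (0.28, edgeR adjusted p = 0.176), with upper-quartile scaling or by limma-voom. Ccnh, of the CDK-activating kinase, fell by 0.67 and 0.60. The Ccnh calls, and the Ccnd1 call, were lost with the GC and length trend removed.

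Of 8 CDK inhibitor genes, 4 were higher and 2 lower with WT ILC2s, 2 and 3 with IL13KO ILC2s, and 3 and 1 between the cocultures. Cdkn2b, p15, an inhibitor of the G1 kinases, fell by 2.35 with WT and 1.05 with IL13KO ILC2s, from 65.5 ± 11.6 (SD, n = 4) to 12.9 ± 0.0760 and 31.6 ± 1.34 CPM (n = 3 each). It was the only inhibitor lower in WT than in IL13KO coculture (-1.30, edgeR adjusted p = 4.67e-05). Cdkn1a, p21, fell by 0.86 and 1.24, and here the WT cocultures were the higher of the pair (0.38, adjusted p = 0.0189). Cdkn1c, p57, rose by 1.63 and 1.86. Cdkn3, a phosphatase of CDKs with periodic transcription, and Cdkn2d, p19, rose by 1.87 and 0.83 with WT ILC2s and had values of 0.24 and 0.25 with IL13KO ILC2s, neither called. Cdkn2c, p18, was called higher with either ILC2 (0.72 and 0.68), but with the GC and length trend removed the values were -0.30 and -0.47 (adjusted p = 0.376 and 0.185). The IL13KO call of Cdkn2c was also lost without IL13KO replicate 2 or 3, and without monoculture 2, 3 or 4 (adjusted p from 0.0515 to 0.151). Cdkn1b, p27, had values of -0.18 (not called) and -0.35 (edgeR adjusted p = 0.0485), the latter call being lost in 14 of 21 alternatives, such as without IL13KO replicate 1 (-0.22, adjusted p = 0.236), and Cdkn2a values of -0.06 and -0.31, not called.

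Genes of the E2F, RB and MuvB families, from which the DREAM complex is built, were divided. Of 18 tested, 7 were higher and 6 lower with WT ILC2s, 7 and 4 with IL13KO ILC2s, and 4 and 1 between the cocultures. Rbl1, p107, a pocket protein, and Tfdp1, the dimer partner of E2F, rose by 2.10 and 1.12 with WT and by 1.01 and 0.83 with IL13KO ILC2s. The MuvB core genes Lin52 and Lin37 fell by 1.5 and 1.15 with WT ILC2s and by 1.07 and 0.92 with IL13KO ILC2s, from 42.2 and 44 CPM in monoculture. Neither was called between the cocultures (-0.43 and -0.24, edgeR adjusted p = 0.0899 and 0.192).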

How the data were processed

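RNA from fibroblasts was sequenced in bulk in 10 libraries, made with a low-input kit and read as pairs, per the labels' protocols. The submitters' processing notes name the aligner STAR 2.7.7a, the quantifier Salmon 1.6.0, Picard, DESeq2, the trimmer Trimmomatic 0.39 and FastQC 0.11.9, with build GRCm38.p6; which tool counted, the annotation and the strand setting are not given in the sources used here. The deposited count table holds whole-number counts per gene, not normalized, and was the only table used; a second deposited table of normalized values was not used.

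Symbols, exons and transcript lengths came from GENCODE M21, which matched 22639 of the 22731 identifiers. Counts were filtered with filterByExpr, TMM-normalised and fitted in edgeR 4.0.16 (R 4.3.3) with 1 coefficient per group over all 10 libraries. Quasi-likelihood p-values were adjusted by Benjamini-Hochberg over all 16344 genes, and called below 0.05. SE is the absolute log2 fold change over the root of F. CPM are TMM-normalised, and levels between genes are CPM per kilobase of the longest transcript. Fitted fold changes use edgeR's default prior count. A prior count of 2 was used only for log2 CPM, as in the deviations of libraries from their group mean. The floors of 3 counts cover counting error only, whereas SE and SD include the spread between libraries. Alternatives were upper-quartile and median-of-ratios scaling, DESeq2 1.42.0, limma-voom (limma 3.58.1), no filter, a filter of 1 CPM in 3 libraries, a fit restricted to the groups in question, a block by column number, removal of each library's GC and length trend (loess, span 0.4), thinning to 10710410 counts, a test against a fold change of 1.5, and leaving out each library. The fit was tested on simulated data.

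The members, the 9 related lists and the marker lists were chosen with earlier results of these data known. Named in full were 21 members of known role, the members with the 2 largest and 2 smallest changes in each comparison and every member not called; of each other list, the 2 called genes with the smallest adjusted p in each direction with WT ILC2s, and all CDK inhibitors and D and E cyclins. Libraries of the same number were not paired in the main fit. The correlations of same-numbered deviations ran from -0.126 to 0.028, and those of other libraries from -0.153 to 0.14. These correlations cannot exclude a pairing, as they are few and the WT column numbers differ from those of the sample titles. Protein sequences were not used here.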

Additional observations from a re-analysis of the deposited data

Results flagged for a closer look

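In each of 107 values measured over the 4 monocultures (47 members, 41 named genes of other lists and 19 summed levels), the highest or lowest library was compared with the rest by the gap to its nearest neighbour as a share of the range. A gap above Dixon's critical value for 4 samples occurred in 6, where chance gives about 1 in 20. Aurka was at 13.0 CPM in monoculture 2, against 7.10 to 7.65 in the others. Nuf2 was at 7.38 CPM in monoculture 3, against 10.96 to 10.98. Monoculture 2 was the only one with Kif18b reads, at 0.370 CPM, and had the lowest Mki67, at 0.222 CPM against 0.738 to 0.844. Its summed chromosomal passenger complex was 35.0 CPM against 37.8 to 38.0. Ccnd2 was at 261 CPM in monoculture 1, against 346 to 352. Each of these values lay outside the range of the WT cocultures. Without the library concerned, the calls of Aurka, Nuf2, Mki67 and Ccnd2 held in all 3 comparisons. Without monoculture 2 the fitted log2 fold change of Kif18b went from 4.24 to 8.07 with WT and from 2.78 to 6.60 with IL13KO ILC2s, values that depend on the prior count because the other monocultures are at 0, and its difference between the cocultures became called (edgeR adjusted p = 0.0846 to 0.0244). The summed level has no test.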

How the results depend on the processing

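Over the 21 alternatives, no call of a member in WT coculture against monoculture was lost or gained (987 fits of single members). In IL13KO coculture against monoculture 37 of 986 such fits lost a call and 10 gained one, and in WT against IL13KO coculture 14 of 987 lost and 5 gained one. No called member changed sign; Cks2, Mad2l1 and Kif15, near 0 and not called with IL13KO ILC2s, did in some fits. Against a fold change of 1.5, genes called fell to 5884 (of 10212) with WT ILC2s, 4234 (of 9384) with IL13KO ILC2s and 1109 (of 3810) between the cocultures, and members higher with IL13KO ILC2s to 21 of 37. With the GC and length trend removed, 3 members rather than 1 were lower with IL13KO ILC2s, and 2 named genes changed sign: Cdkn2c (-0.30 with WT and -0.47 with IL13KO ILC2s) and Chmp2b (0.13 with IL13KO ILC2s), none of them then called. Fitting only the groups compared called 5806 genes between the cocultures. With a replicate block by column number, which may not pair these libraries, 2124 genes were called between the cocultures. Under this block 46, 36 and 43 members were higher in the 3 comparisons. Bub1b and Foxm1 then lost their calls between the cocultures, and Bub1 its call with IL13KO ILC2s. Leaving out single libraries gave 2337 (without IL13KO replicate 2) to 4814 (without monoculture replicate 1) genes called between the cocultures, and a median of the members of 1.49 to 1.81, the highest without IL13KO replicate 3. Without that library 32 members were higher with IL13KO ILC2s. Upper-quartile scaling moved the median of all genes to -0.106 and -0.102 in the comparisons with monoculture, and that of the members to 2.56 and 0.86. In the other lists, counts of genes called higher moved by over 1.5 times in 2, 12 and 14 of 189 fits in the 3 comparisons. A promoter window of 150 bases left the members' motif shares at 71.1% (CCAAT) and 76.3% (CHR), against 31.9% and 13.7% of all genes. The cause of these changes was not tested. Depth limits Mybl2, Cenpe, Cenpf, Kif18b, Foxm1, Mki67 and Ttk in monoculture, which had 0 to 15 counts there. No comparison of protein sequences was run.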

Other observations

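Levels of partner genes were compared within libraries in 7 pairs, of which Cdk1 and Ccnb1 are given above. In CPM per kilobase of transcript, Ccnb1 stood at 0.559 ± 0.10 (SD, n = 4) of Ccnb2 in monocultures, 0.832 ± 0.024 (n = 3) in WT and 0.674 ± 0.043 (n = 3) in IL13KO cocultures. Spc24 stood at 0.569 ± 0.193 of Spc25 in monocultures, 0.982 ± 0.127 in WT and 0.654 ± 0.034 in IL13KO cocultures. The ratio of Ndc80 to Nuf2 was 0.423 ± 0.146, 0.566 ± 0.043 and 0.456 ± 0.053 in the same groups, within the spread of the monocultures. Kif20a, at 29.9 ± 7.29 times Kif20b in monocultures, stood at 14.5 ± 3.55 times in WT and 22.8 ± 4.41 times in IL13KO cocultures. The ratio of Aurka to Aurkb was 1.82 ± 0.935, 1.65 ± 0.0766 and 1.34 ± 0.26, and that of Kif23 to Racgap1 0.166 ± 0.0471, 0.224 ± 0.0154 and 0.177 ± 0.00763, in monoculture, WT and IL13KO coculture. These pairs were chosen for their shared complexes or families, and the ratios were not tested.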
